A study of Homo sapiens with 16 samples.

Results

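A set of 36 genes of homologous recombination, the Fanconi anemia pathway and the ATR checkpoint was followed across MDA-MB-231 and SUM159 cells treated with an inhibitor of the kinase YES1. The 36 genes were taken by symbol from a fixed list, out of 58735 genes in the count table. All 36 passed a filter on low counts and belong to the 17647 genes that were tested. Both MDA-MB-231 and SUM159, which the titles write as SUM159PT, are established human cell lines of triple-negative breast cancer, a class defined by the lack of the oestrogen and progesterone receptors and of HER2 amplification. The labels give both lines as wild type (WT) and name no other alteration. Cells received the solvent DMSO or 8 uM of YES1i (CH6953755), which targets this kinase of the Src family, for 48 h. There were 16 libraries, 4 for each combination of line and treatment. MDA-MB-231 was seeded at a higher cell number than SUM159, and in RPMI rather than Ham/F12, so that line, cell number and medium cannot be told apart. The series text calls the 4 libraries of a group technical replicates, and p-values therefore measure only the spread between these libraries. The series concerns YES1, mitotic fidelity and taxanes, and the question here is how the repair transcripts of each line differ with treatment.

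Homologous recombination repairs a double-strand break by copying the sister chromatid, and it works mainly in S and G2 phase. Nucleases first resect the ends to single strands, BRCA1 with BARD1, PALB2 and BRCA2 prepare these for strand exchange, the XRCC2 and XRCC3 complexes and RAD54 proteins assist in invading the sister, and BLM with topoisomerase III alpha or the nucleases MUS81-EME1 and SLX4 separate the joined molecules. The Fanconi anemia core complex, with its E2 enzyme UBE2T, attaches ubiquitin to FANCD2 and FANCI at crosslinks between DNA strands, which starts their removal. ATR with its partner ATRIP senses single-stranded DNA at stalled forks and activates the kinase CHEK1. In breast tissue, BRCA1, BRCA2, PALB2 and several others are known as genes of inherited cancer risk. Many of these genes are transcribed in a cell-cycle-dependent way, in which E2F factors, factors at CHR elements and NF-Y at CCAAT boxes are known to take part.

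Promoter sequence was drawn from RefSeq (GRCh38.p14), whose table held 33 of the 36 genes and lacked FANCI, RAD54B and RMI2. The 250 bases before the start were searched on both strands for E2F sites (TTTGGCGC, TTTCCCGC, TTTGCCGC or TTTCGCGC), CHR elements (TTTGAA or TTTAAA) and CCAAT boxes (CCAAT). An E2F site was found for 3 of the 33 genes (FANCA, RMI1 and FANCC), 9.09% against 3.40% of 27305 genes in the table. A CHR element was found for 6 genes (18.2% against 25.5%) and a CCAAT box for 15 (45.5% against 37.0%). The 33 genes had 44 promoters there, and a gene counted if any of its promoters matched. Windows that lie in annotated exons were kept for these shares. The shares are a description of exact letters in a short window. Printed are the windows of the 3 genes with the most negative mean response of both lines and of the 2 with the smallest mean response, among 13 windows with at most 30 bases in annotated exons. The capitals mark the matches, and all run 5′ to 3′ on the gene's strand.
RAD54L: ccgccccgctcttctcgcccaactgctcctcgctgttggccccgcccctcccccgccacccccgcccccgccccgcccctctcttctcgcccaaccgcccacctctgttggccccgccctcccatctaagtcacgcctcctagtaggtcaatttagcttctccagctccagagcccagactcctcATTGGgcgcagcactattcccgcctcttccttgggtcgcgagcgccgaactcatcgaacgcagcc
FANCA: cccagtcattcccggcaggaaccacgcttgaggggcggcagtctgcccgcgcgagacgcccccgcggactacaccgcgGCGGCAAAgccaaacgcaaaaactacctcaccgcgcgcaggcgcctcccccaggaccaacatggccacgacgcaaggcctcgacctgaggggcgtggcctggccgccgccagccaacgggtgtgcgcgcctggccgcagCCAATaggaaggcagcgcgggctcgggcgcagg
POLQ: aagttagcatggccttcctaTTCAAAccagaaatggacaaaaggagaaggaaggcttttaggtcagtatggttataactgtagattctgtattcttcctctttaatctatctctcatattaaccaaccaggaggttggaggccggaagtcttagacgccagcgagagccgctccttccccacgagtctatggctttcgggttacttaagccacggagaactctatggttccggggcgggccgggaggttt
FANCE: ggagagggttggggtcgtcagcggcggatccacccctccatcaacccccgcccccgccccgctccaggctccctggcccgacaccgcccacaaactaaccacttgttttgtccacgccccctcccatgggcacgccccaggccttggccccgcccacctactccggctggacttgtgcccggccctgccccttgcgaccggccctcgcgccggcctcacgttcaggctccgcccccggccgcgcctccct
FANCC: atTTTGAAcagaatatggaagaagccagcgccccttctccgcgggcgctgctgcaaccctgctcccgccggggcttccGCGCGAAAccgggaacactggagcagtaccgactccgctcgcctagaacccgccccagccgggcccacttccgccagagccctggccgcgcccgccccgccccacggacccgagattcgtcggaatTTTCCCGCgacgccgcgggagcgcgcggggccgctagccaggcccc
They lie at chr1:46247438-46247687 (RAD54L, plus strand), chr16:89816648-89816897 (FANCA, minus), chr3:121545989-121546238 (POLQ, minus), chr6:35452088-35452337 (FANCE, plus) and chr9:95317710-95317959 (FANCC, minus). The windows of POLQ and FANCC lie within those genes as the count table draws them, because the RefSeq start is inside the longer gene model. The RAD54L window held 1 CCAAT box, whose first base was 65 bases before the start. In FANCA an E2F site began 172 bases and a CCAAT box 33 bases before the start, and in POLQ a CHR element began 230 bases before it. FANCC held a CHR element at 248 and E2F sites at 172 and 46 bases before the start. FANCE held none of the 3 motifs in this window. A match was thus present in 1 of the 2 genes with the smallest mean response among those 13 windows. Over all 33 genes, MUS81 and FANCF had the smallest mean responses (-0.01 and 0.06), and both held a CCAAT box.

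Library totals ran from 15876171 to 36261542 counts, and the smallest count of any of the 36 genes in any library was 23, for RAD54B. Levels are given as CPM, counts scaled to library size with edgeR's TMM factors. The limit that a count of 0 allows, 3 counts of the total, ran from 0.0827 to 0.189 CPM and covers counting error only. Transcripts of the hormone receptors were low: the group means of PGR were 0 to 0.0340 CPM, and those of ESR1 were 0.0588 and 0.129 CPM in MDA-MB-231 and, above that limit, 0.607 and 0.484 CPM in SUM159. ERBB2 was at 107 to 118 CPM, and the mesenchymal marker VIM at 749 to 2442 CPM. Of the epithelial markers, KRT8 and KRT18 were present in both lines, whereas CDH1 was at 3.06 CPM in MDA-MB-231 and at 0 in all SUM159 libraries with DMSO. Of 12 markers of leukocytes, endothelium, red cells and, with ALB, hepatocytes, 4 passed the filter, of which 3 were called higher with YES1i in MDA-MB-231 and 2 in SUM159. HBA1 was at 0 in every library, and the 12 markers summed to 12.4 to 16.6 CPM with DMSO and 21.9 to 24.6 CPM with YES1i in MDA-MB-231. In SUM159 the sum was 1.99 to 2.79 CPM with DMSO and 4.02 to 4.53 CPM with YES1i. The share of counts from mitochondrial ribosomal RNA was 0.644% with DMSO and 1.33% after treatment in MDA-MB-231, and 0.731% and 1.34%, respectively, in SUM159 (two-sided exact permutation p = 0.0286 in each line, the smallest that 70 regroupings allow). SUM159 YES1i replicate 2 stood apart from its group: a chi-square per degree of freedom over genes was 12.3 to 23.8 against the other 3 libraries and 3.97 to 6.51 among those 3. In the SUM159 DMSO group, replicate 1 differed from replicates 2 and 3 by 16.5 and 17.4. Replicate 1 was also the deepest library, at 36261542 counts. Its log2 CPM correlated with replicates 2 and 3 at 0.9901 and 0.9913, against 0.9904 between replicates 2 and 3. The part of depth in its chi-square was not tested. The part of the marker sum, the ribosomal RNA share and these libraries in the results was not tested, and values without single libraries are given beside the calls of the genes described.

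Transcripts of the pathway fell together in both lines. The 36 genes summed to 1257 to 1274 CPM in the MDA-MB-231 libraries with DMSO and to 654 to 681 CPM with YES1i. In SUM159 they summed to 1173 to 1210 CPM with DMSO and to 667 to 730 CPM with YES1i. In MDA-MB-231, 33 of the 36 genes were called in either direction (48.9% of all tested genes). Of these, 32 were lower at an adjusted p under 0.05 (edgeR's quasi-likelihood test, Benjamini-Hochberg over all genes), where 22% of all tested genes were lower, and 1 was higher (26.8%). In SUM159, 32 genes were called (51.6% of all tested genes), 31 of them lower (26.5%) and 1 higher (25.1%). At least 2-fold falls were called for 19 genes in MDA-MB-231 (3.8% of all genes) and for 14 in SUM159 (3.2%), and at least 2-fold rises for 0 in either line (6.31% and 6.72%). The median log2 fold change of the 36 genes was -1.05 in MDA-MB-231 and -0.84 in SUM159, against 0.03 and 0.02 over all tested genes. In 32 genes in MDA-MB-231 and 30 in SUM159 every YES1i library was below every DMSO library (21.8% and 22.7% of all genes). The opposite order held for 1 gene in MDA-MB-231 (25.5%) and for 0 in SUM159 (20.5%). The 2 treatment comparisons share no libraries, and 28 genes were called lower in both (14% of all genes). No gene of the 36 was called higher in both lines (12.4% of all genes), and 1, MUS81, was called in opposite directions (5.17%). In bulk samples, fewer cells in S and G2 phase and less RNA per cell cannot be told apart.

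**Figure D1:**
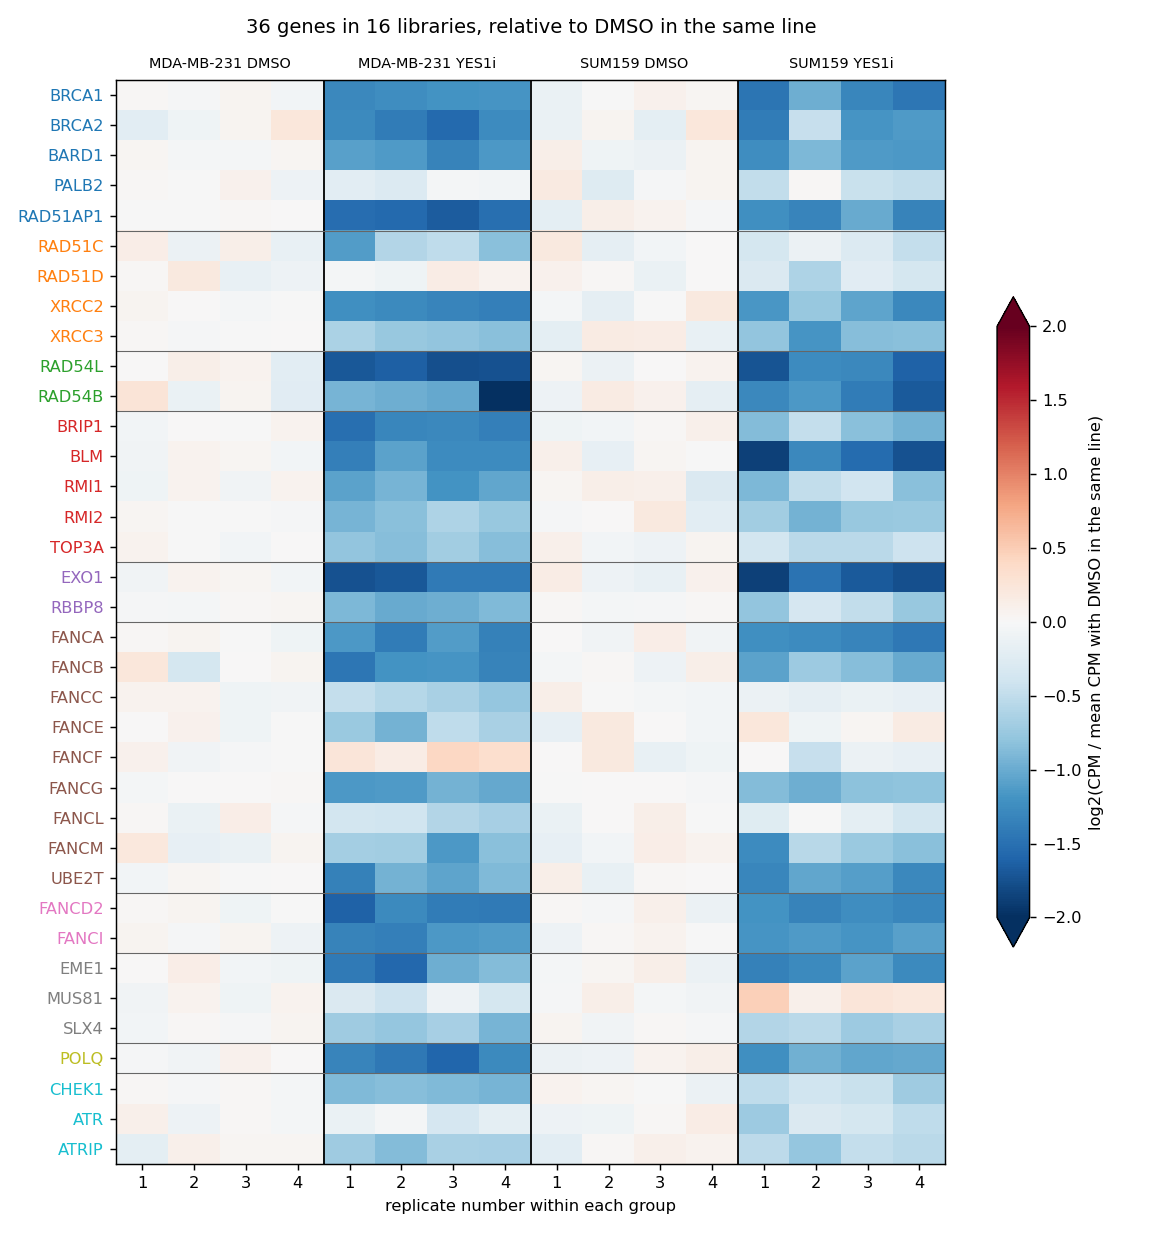
Level of each of the 36 genes (rows, coloured by role) in each of the 16 libraries (columns, grouped by line and treatment), as log2 of CPM over the mean CPM with DMSO in the same line; blue is lower and red higher. Most rows are blue in all 8 YES1i libraries, with summed levels of 654 to 681 CPM against 1257 to 1274 in MDA-MB-231, while PALB2, RAD51D, FANCF and MUS81 stay pale or turn red.

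Of BRCA1, BRCA2 and their partners, 4 of 5 were lower in MDA-MB-231 (22% of all tested genes) and all 5 in SUM159 (26.5%). BRCA1 (chr17:43044295-43170245, minus strand, hg38), the ubiquitin ligase that acts in resection and later steps, stood at 52.6, 51.2, 53.7 and 50.0 CPM with DMSO and at 21.1, 22.0, 22.7 and 22.8 CPM with YES1i in MDA-MB-231. SUM159 libraries held 45.3, 49.3, 53.1 and 51.5 CPM with DMSO and at 18.1, 25.2, 20.3 and 18.3 CPM with YES1i. The groups were far from overlapping in either line, and the log2 changes were -1.23 (SE 0.08, adjusted p = 2.08e-13) and -1.28 (SE 0.08, adjusted p = 1.30e-13). The BRCA1 exons share 120 bases on the same strand with the RNA gene AC060780.1, which had 40.9% of the BRCA1 total count. BARD1, the obligate partner of BRCA1, fell by 1.17 (SE 0.09) and 1.10 (SE 0.08).

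BRCA2 (chr13:32315474-32400266), which acts on resected single-stranded DNA, was at 22.5, 24.6, 27.2 and 30.6 CPM with DMSO in MDA-MB-231 and at 10.9, 9.97, 8.91 and 10.9 CPM with YES1i. In SUM159 it went from 16.4, 18.8, 15.8 and 21.0 CPM to 6.84, 13.1, 7.89 and 8.17 CPM. No YES1i library reached a DMSO library of its line, although SUM159 YES1i replicate 2 lay well above the other 3 of its group. The log2 changes were -1.37 (SE 0.15, adjusted p = 1.60e-07) and -0.98 (SE 0.16, adjusted p = 2.04e-05). PALB2, which bridges BRCA1 and BRCA2, changed least of these 5. In MDA-MB-231 its log2 change was -0.14 (SE 0.11, adjusted p = 0.335), with levels of 13.8 to 15.6 CPM with DMSO and 12.2 to 14.4 CPM with YES1i. In SUM159 it was called at -0.33 (SE 0.11, adjusted p = 0.0103), but the groups overlapped (17.7 to 23.9 against 15.1 to 21.6 CPM). The PALB2 call was lost without SUM159 DMSO replicate 1 (adjusted p = 0.0545) or YES1i replicate 4 (adjusted p = 0.0508). Upper quartile scaling ended it too (adjusted p = 0.0980).

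RAD51AP1, which stimulates strand invasion, showed one of the largest falls. In MDA-MB-231 it was at 36.2, 36.2, 37.1 and 36.6 CPM with DMSO and at 12.7, 12.5, 11.6 and 12.8 CPM with YES1i, a log2 change of -1.56 (SE 0.08, adjusted p = 1.95e-15). In SUM159 it went from 27.5, 34.1, 33.0 and 31.0 to 13.4, 12.5, 15.6 and 12.4 CPM (-1.22, SE 0.08). The YES1i libraries of both lines thus met in the range of 11.6 to 15.6 CPM.

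The 4 genes RAD51C, RAD51D, XRCC2 and XRCC3, whose products form complexes that assist strand exchange, did not move as one. XRCC2 fell by 1.30 (SE 0.09) in MDA-MB-231 and by 1.05 (SE 0.09) in SUM159, and XRCC3 by 0.75 (SE 0.09) and 0.90 (SE 0.09). RAD51C fell by 0.74 (SE 0.12, adjusted p = 4.18e-06) in MDA-MB-231, from 15.2 to 18.5 CPM with DMSO to 7.73 to 11.8 CPM with YES1i. Its change in SUM159 was -0.31 (SE 0.11, adjusted p = 0.0199), a call that was lost with DESeq2 (adjusted p = 0.0545), with upper quartile scaling (0.147), and without SUM159 DMSO replicate 1 (0.100) or YES1i replicate 4 (0.0880). RAD51D was at 15.8 to 20.1 CPM with DMSO and 16.5 to 19.4 CPM with YES1i in MDA-MB-231 (0.03, SE 0.09, adjusted p = 0.832) and fell by 0.36 (SE 0.09, adjusted p = 0.00103) in SUM159. XRCC3 needs care, since 76.7% of its exonic length also lies in exons of KLC1 on the opposite strand.

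Both RAD54 motor proteins, which drive homology search and strand exchange, were lower in both lines (14% of all tested genes). RAD54L (chr1:46247688-46278473), whose promoter is printed above, had the largest fall of the 36 genes in MDA-MB-231. It stood at 27.7, 29.9, 29.1 and 24.0 CPM with DMSO and at 8.59, 8.93, 8.20 and 8.24 CPM with YES1i (-1.70, SE 0.10, adjusted p = 1.40e-14). In SUM159 it stood at 28.9, 25.9, 28.4 and 29.6 CPM with DMSO and at 8.502, 11.7, 11.6 and 9.20 CPM with YES1i (-1.46, SE 0.10, adjusted p = 3.22e-13). The YES1i libraries of both lines lay below 12 CPM and all 8 DMSO libraries above 23 CPM. RAD54L shares 25.1% of its exonic length with LRRC41 on the opposite strand. RAD54B was the least abundant of the 36. In MDA-MB-231 it was at 6.15, 4.68, 5.37 and 4.37 CPM with DMSO and at 2.69, 2.61, 2.54 and 1.15 CPM with YES1i (-1.20, SE 0.20). In SUM159 it was at 5.66, 6.83, 6.51 and 5.40 CPM with DMSO and at 2.50, 2.74, 2.32 and 1.90 CPM with YES1i (-1.37, SE 0.19, adjusted p = 6.04e-07). Of its exonic length, 59.1% is shared on the same strand with FSBP, so its values are uncertain.

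The 2 genes of end resection were lower in both lines (14% of all tested genes), by different amounts. EXO1 (chr1:241847967-241895148), the long-range exonuclease, stood at 37.5, 41.4, 40.2 and 37.8 CPM with DMSO and at 11.7, 12.1, 14.8 and 14.7 CPM with YES1i in MDA-MB-231 (-1.55, SE 0.09, adjusted p = 1.69e-14). In SUM159 it went from 39.0, 32.8, 31.9 and 37.4 to 9.69, 12.6, 10.99 and 10.4 CPM, the largest fall in that line (-1.69, SE 0.09, adjusted p = 6.29e-15). RBBP8, which encodes CtIP and starts resection, fell by 0.94 (SE 0.08) in MDA-MB-231 and by 0.58 (SE 0.07) in SUM159. In SUM159 its YES1i libraries were spread from 42.7 to 58.6 CPM, below the 71.9 to 75.3 CPM with DMSO.

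All 5 helicase and dissolvasome genes were lower in both lines (14% of all tested genes). BLM, the helicase that unwinds double Holliday junctions and is mutated in Bloom syndrome, was at 18.1, 20.02, 19.5 and 18.3 CPM with DMSO and at 7.39, 9.06, 7.91 and 7.94 CPM with YES1i in MDA-MB-231 (-1.24, SE 0.11). In SUM159 BLM was at 25.1, 20.8, 24.0 and 23.2 CPM with DMSO and at 6.36, 9.56, 8.06 and 7.001 CPM with YES1i (-1.59, SE 0.10, adjusted p = 2.85e-13). Its partners in the dissolvasome fell less. TOP3A, the topoisomerase, changed by -0.80 (SE 0.06) and -0.47 (SE 0.07), and RMI1 and RMI2, which stabilise the complex, by -1.06 (SE 0.10) and -0.78 (SE 0.09) in MDA-MB-231 and by -0.64 (SE 0.10) and -0.79 (SE 0.10) in SUM159. BRIP1, the FANCJ helicase that binds BRCA1, fell by 1.36 (SE 0.08) in MDA-MB-231 and by 0.77 (SE 0.09) in SUM159. POLQ, the polymerase of theta-mediated end joining that works where recombination fails, was lower as well, by 1.40 (SE 0.09) and 1.06 (SE 0.08).

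FANCD2 and FANCI, the pair that receives ubiquitin at crosslinks, fell in both lines. FANCD2 (chr3:10026414-10101930) was at 37.9, 38.8, 35.2 and 37.0 CPM with DMSO and at 12.2, 15.4, 14.2 and 14.0 CPM with YES1i in MDA-MB-231 (-1.42, SE 0.07, adjusted p = 1.10e-15). In SUM159 it started higher, at 71.1, 69.2, 75.5 and 64.8 CPM, and was at 30.7, 27.7, 29.7 and 28.4 CPM with YES1i (-1.27, SE 0.07, adjusted p = 2.52e-15). FANCD2 in SUM159 with YES1i thus remained near, though below, its DMSO level in MDA-MB-231. FANCI (chr15:89243949-89317261) was at 85.4, 80.6, 85.6 and 76.6 CPM with DMSO and at 32.6, 31.8, 37.2 and 38.0 CPM with YES1i in MDA-MB-231 (-1.23, SE 0.06). In SUM159 it went from 82.5, 89.7, 92.5 and 87.5 to 38.7, 39.96, 38.9 and 41.3 CPM (-1.15, SE 0.06). No library with YES1i came within 30 CPM of one with DMSO. FANCI shares 5.90% of its exonic length with POLG on the opposite strand.

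**Figure D2:**
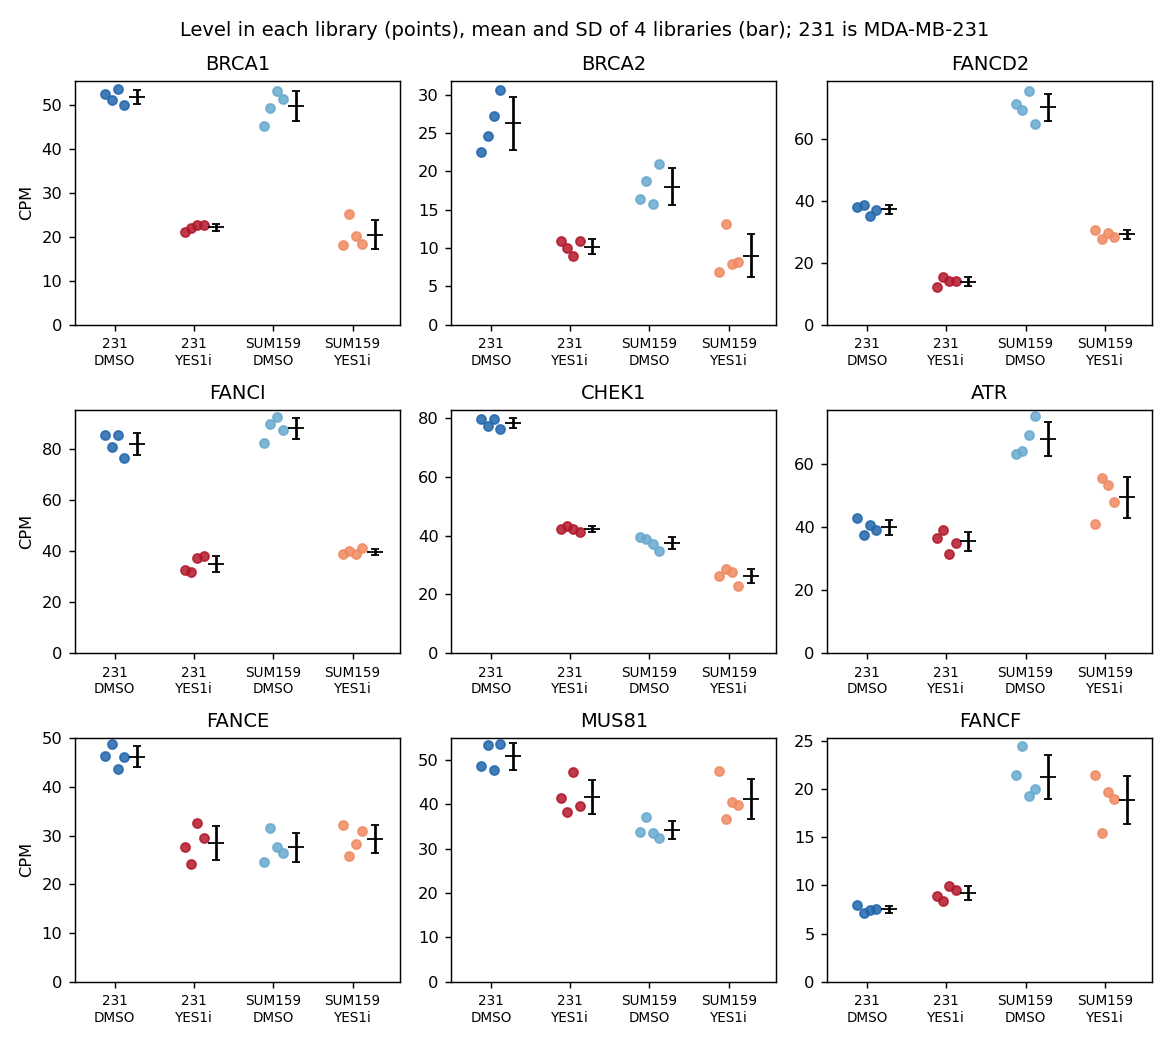
CPM of 9 genes in each library (points) with the mean and SD of the 4 libraries of each group (bars), each panel from 0. BRCA1, BRCA2, FANCD2, FANCI and CHEK1 are separated by treatment in both lines, whereas ATR overlaps in MDA-MB-231, FANCE overlaps in SUM159, MUS81 moves in opposite directions and FANCF differs mainly between the lines.

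Among the 9 genes of the Fanconi core complex and its E2, a difference of response between the lines was called for FANCC, FANCE and FANCF. That share is near the 31.1% of all tested genes. Of the 8 subunits of the core complex and UBE2T, 8 were lower (22% of all tested genes) and 1 higher (26.8%) in MDA-MB-231. In SUM159 5 were lower (26.5%) and 4 did not pass the test. FANCA, the subunit most often mutated in Fanconi anemia, fell by 1.24 (SE 0.07) in MDA-MB-231 and 1.31 (SE 0.07) in SUM159, and shares 23.6% of its exonic length with ZNF276 on the opposite strand. UBE2T fell by 1.05 (SE 0.08) and 1.18 (SE 0.08), FANCG by 1.06 (SE 0.06) and 0.87 (SE 0.07), FANCB, the X-linked subunit, by 1.28 (SE 0.13) and 0.90 (SE 0.13), and FANCM, the translocase that anchors the complex to DNA, by 0.84 (SE 0.12) and 0.81 (SE 0.13). FANCL, the ubiquitin ligase subunit, fell by 0.50 (SE 0.11, adjusted p = 2.14e-04) in MDA-MB-231, and its change in SUM159 was -0.19 (SE 0.10, adjusted p = 0.101). Without SUM159 YES1i replicate 2 that value was -0.27 and was called (adjusted p = 0.0279). FANCL shares 18.7% of its exonic length with VRK2 on the opposite strand. FANCC fell by 0.61 (SE 0.07, adjusted p = 2.70e-08) in MDA-MB-231, where its change in SUM159 was -0.15 (SE 0.07, adjusted p = 0.0824).

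FANCE and FANCF, which connect the core complex to FANCD2 and hold its parts together, departed most from the rest. FANCE (chr6:35452356-35467103) was at 46.4, 48.8, 43.7 and 46.1 CPM with DMSO and at 27.7, 24.1, 32.6 and 29.4 CPM with YES1i in MDA-MB-231 (-0.70, SE 0.09, adjusted p = 7.34e-08). In SUM159 FANCE was at 24.5, 31.5, 27.7 and 26.5 CPM with DMSO and at 32.2, 25.9, 28.2 and 31.0 CPM with YES1i, with overlapping groups (0.10, SE 0.09, adjusted p = 0.375). With YES1i, FANCE in MDA-MB-231 had come down close to the range that SUM159 held in both groups. FANCF (chr11:22622890-22625841, minus strand) was the 1 gene called higher in MDA-MB-231, from 7.98, 7.18, 7.41 and 7.51 to 8.93, 8.33, 9.97 and 9.54 CPM (0.29, SE 0.11, adjusted p = 0.0315). These groups did not overlap, but the call was lost with limma-voom (adjusted p = 0.0672), with no filter (0.0889), and without MDA-MB-231 DMSO replicate 2 (0.0723), 3 (0.0641) or 4 (0.0588) or YES1i replicate 3 (0.0963) or 4 (0.0727). In SUM159 FANCF was at 21.5, 24.4, 19.2 and 20.01 CPM with DMSO and at 21.4, 15.5, 19.7 and 18.97 CPM with YES1i (-0.17, SE 0.10, adjusted p = 0.137).

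Of the structure-selective nucleases, EME1 and SLX4 were lower in both lines and MUS81 was not. EME1, the partner subunit of MUS81, fell by 1.16 (SE 0.13) in MDA-MB-231 and 1.24 (SE 0.11) in SUM159, and SLX4, the scaffold that gathers nucleases at crosslinks, by 0.77 (SE 0.07) and 0.63 (SE 0.07). MUS81 (chr11:65857126-65867653), the catalytic subunit, was at 48.7, 53.3, 47.9 and 53.6 CPM with DMSO and at 41.5, 38.4, 47.3 and 39.7 CPM with YES1i in MDA-MB-231 (-0.29, SE 0.08, adjusted p = 0.00239). In SUM159 it was at 33.8, 37.2, 33.4 and 32.4 CPM with DMSO and at 47.4, 36.8, 40.6 and 39.8 CPM with YES1i (0.26, SE 0.08, adjusted p = 0.00507). The groups were apart in MDA-MB-231 by a narrow margin, and in SUM159 YES1i replicate 2 lay within the DMSO range. MUS81 shares 13.9% of its exonic length with CFL1 on the opposite strand, which had 282099 counts in all against 13595 and changed by -0.41 (SE 0.05) and -0.83 (SE 0.05). EME1 likewise shares 16.4% with LRRC59, so both nuclease values depend on how overlapping reads were counted, which is not given in the sources used here.

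In the checkpoint arm, CHEK1 fell in both lines and ATR passed the test in SUM159. CHEK1 (chr11:125625136-125676255), the kinase that halts the cycle when forks stall, was at 79.7, 77.3, 79.7 and 76.3 CPM with DMSO and at 42.3, 43.3, 42.3 and 41.2 CPM with YES1i in MDA-MB-231 (-0.89, SE 0.06, adjusted p = 1.04e-12). In SUM159 CHEK1 was at 39.5, 38.7, 37.2 and 34.7 CPM with DMSO and at 26.3, 28.5, 27.7 and 22.9 CPM with YES1i (-0.52, SE 0.07, adjusted p = 1.79e-07). The YES1i libraries of MDA-MB-231 were still above every SUM159 library. CHEK1 shares 80 exonic bases on the same strand with STT3A, which had more counts and a log2 change of 0.06 and -0.15. ATR (chr3:142449235-142578826), the kinase upstream of CHEK1, was at 43.0, 37.5, 40.7 and 39.0 CPM with DMSO and at 36.6, 39.1, 31.6 and 34.9 CPM with YES1i in MDA-MB-231, with overlapping groups (-0.18, SE 0.08, adjusted p = 0.0836). That value passed the threshold when the MDA-MB-231 groups were fitted alone (-0.22, adjusted p = 0.00552), with no filter (adjusted p = 0.0288), and without MDA-MB-231 YES1i replicate 2 (adjusted p = 0.0447) or SUM159 YES1i replicate 1 (adjusted p = 0.0495). In SUM159 ATR went from 63.5, 64.3, 69.5 and 75.3 to 41.1, 55.6, 53.4 and 47.9 CPM, with no overlap (-0.46, SE 0.08, adjusted p = 2.34e-05). ATRIP, its binding partner, fell by 0.71 (SE 0.10) and 0.57 (SE 0.09). Of its exonic length, 27.9% is shared on the same strand with TREX1, whose row held 0 counts in all libraries.

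**Figure D3:**
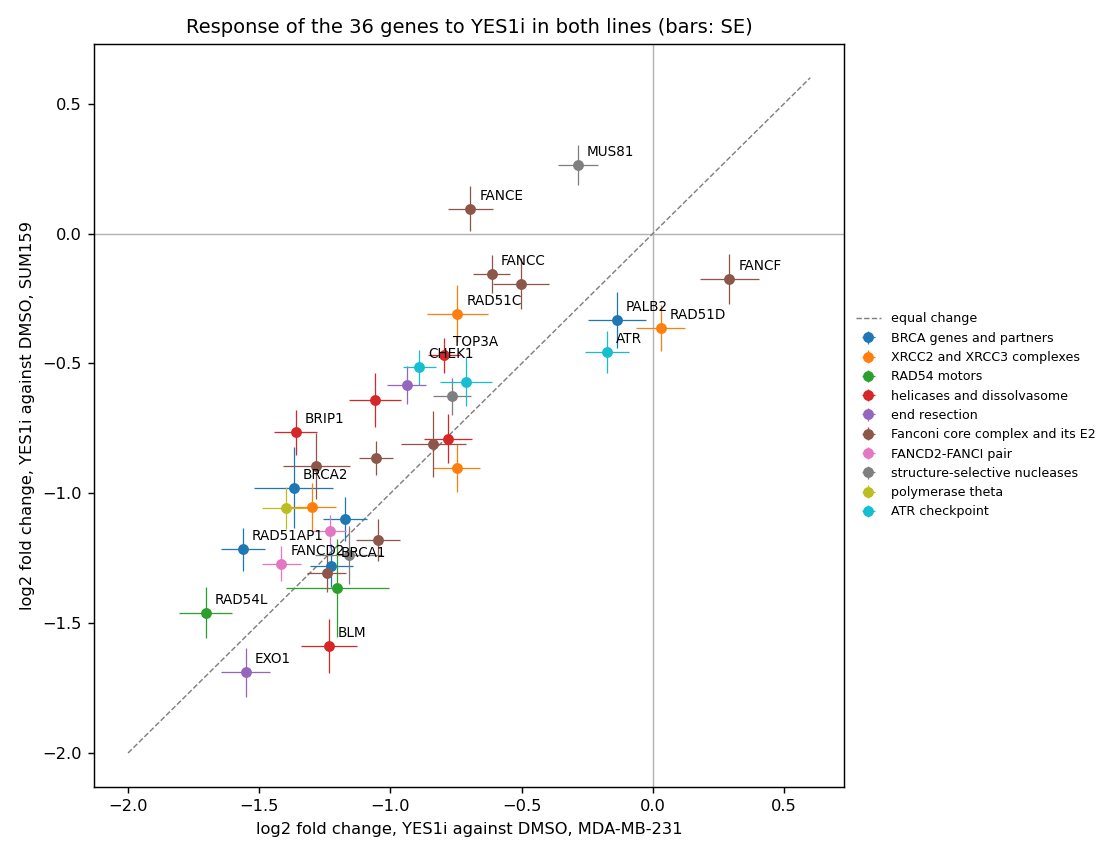
Log2 fold change with YES1i in MDA-MB-231 (x axis) and SUM159 (y axis) for the 36 genes, coloured by role, with SE bars; the dashed line marks equal change. Of the 36 genes, 28 are called lower in both lines, and MUS81 and FANCE lie above 0 on the y axis while FANCF and RAD51D lie right of 0 on the x axis.

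The difference between the responses of the lines was tested as an interaction. It was called for 13 of the 36 genes (31.1% of all tested genes), of which 11 had the more negative value in MDA-MB-231 (12.1%) and 2 in SUM159 (19.1%). With upper quartile scaling the split was 16 and 0, since XRCC2, FANCB, FANCD2, FANCG and FANCL were gained and RAD51D and FANCF lost, and with DESeq2 it was 13 and 2, with FANCG and FANCL gained. Without SUM159 YES1i replicate 2 it was 8 and 5, as RAD51C, RMI1 and POLQ were lost and PALB2, BLM and ATR gained. The FANCB difference was called without MDA-MB-231 DMSO replicate 2 (-0.49, adjusted p = 0.0328). That of BRCA2 was called with no filter (-0.42, adjusted p = 0.0318), and that of FANCG with RLE scaling (-0.25, adjusted p = 0.0420). A 2-fold difference was called for 0 of the 36 in either direction (3.17% and 3.07%). The median difference, MDA-MB-231 minus SUM159, was -0.14 for the 36 genes and 0.04 over all tested genes. Counted in either direction, the share of differing genes was 36.1%, near the background. By direction the shares were 30.6% and 5.56%, against 12.1% and 19.1% of all tested genes, and varied with scaling and libraries as above. What follows describes single genes.

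FANCE had the largest difference, -0.79 (SE 0.12, adjusted p = 8.88e-06), with a fall in MDA-MB-231 and no call in SUM159. BRIP1 followed at -0.60 (SE 0.12, adjusted p = 2.53e-04). It was at 48.1, 50.1, 49.7 and 52.4 CPM with DMSO and at 17.7, 20.3, 20.4 and 19.5 CPM with YES1i in MDA-MB-231, and at 25.5, 26.1, 27.4 and 29.1 CPM and 14.7, 19.4, 15.2 and 14.0 CPM in SUM159. The DMSO levels of the lines were wide apart and the YES1i levels close together. MUS81 differed by -0.55 (SE 0.11, adjusted p = 2.07e-04), FANCC by -0.46 (SE 0.10, adjusted p = 9.13e-04), CHEK1 by -0.37 (SE 0.09, adjusted p = 0.00217), RBBP8 by -0.36 (SE 0.10, adjusted p = 0.00916) and TOP3A by -0.33 (SE 0.09, adjusted p = 0.00534). These 7 calls held in all 23 alternatives that kept the threshold. FANCF differed in the other direction, by 0.47 (SE 0.15, adjusted p = 0.0163), and lost its call with upper quartile scaling (adjusted p = 0.0634).

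The other 5 calls were less stable over those 23 alternatives. RAD51C (-0.44, SE 0.16, adjusted p = 0.0381) was lost in 11, POLQ (-0.34, SE 0.12, adjusted p = 0.0311) in 8, RMI1 (-0.42, SE 0.14, adjusted p = 0.0267) and RAD51D (0.39, SE 0.13, adjusted p = 0.0193) in 5 each, and RAD51AP1 (-0.35, SE 0.12, adjusted p = 0.0249) in 3. The single libraries whose removal ended the RAD51AP1 call were MDA-MB-231 YES1i replicate 3 (adjusted p = 0.0541), SUM159 DMSO replicate 1 (0.0691) and SUM159 YES1i replicate 3 (0.0803). Without SUM159 YES1i replicate 2, RMI1, POLQ and RAD51C lost theirs (0.0531, 0.0555 and 0.0758). Other single libraries that ended the RMI1 call were MDA-MB-231 DMSO replicate 4 and YES1i replicate 3 and SUM159 DMSO replicate 4 and YES1i replicate 3 (0.0504 to 0.0846). The RAD51D call was lost without MDA-MB-231 DMSO replicate 3 or 4 or YES1i replicate 3 (0.0521 to 0.0595). For POLQ they were MDA-MB-231 DMSO replicate 3, YES1i replicates 2 and 3, SUM159 DMSO replicates 1 and 2 and YES1i replicate 4 (0.0521 to 0.0896). For RAD51C they were MDA-MB-231 DMSO replicates 1 and 3, YES1i replicates 1 and 4, SUM159 DMSO replicates 2, 3 and 4 and YES1i replicate 3 (0.0561 to 0.0971).

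BLM, whose fall was the larger one in SUM159 (difference 0.35, SE 0.15, adjusted p = 0.0752), was called at 0.48 without SUM159 YES1i replicate 2 (adjusted p = 0.00952). ATR (0.28, SE 0.12, adjusted p = 0.0663) and PALB2 (0.20, SE 0.15, adjusted p = 0.367) were called at 0.34 and 0.35 without that library (adjusted p = 0.0155 and 0.0482). The ATR difference also passed without MDA-MB-231 YES1i replicate 3 (0.0368), SUM159 DMSO replicate 1 (0.0435) or SUM159 YES1i replicate 3 (0.0493). SUM159 YES1i replicate 2 held the highest level of its group for 20 of the 36 genes, more than any other of the 16. The treatment comparisons, the difference between them and the comparison of the lines with DMSO share control libraries, and their values are given side by side only.

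**Figure D4:**
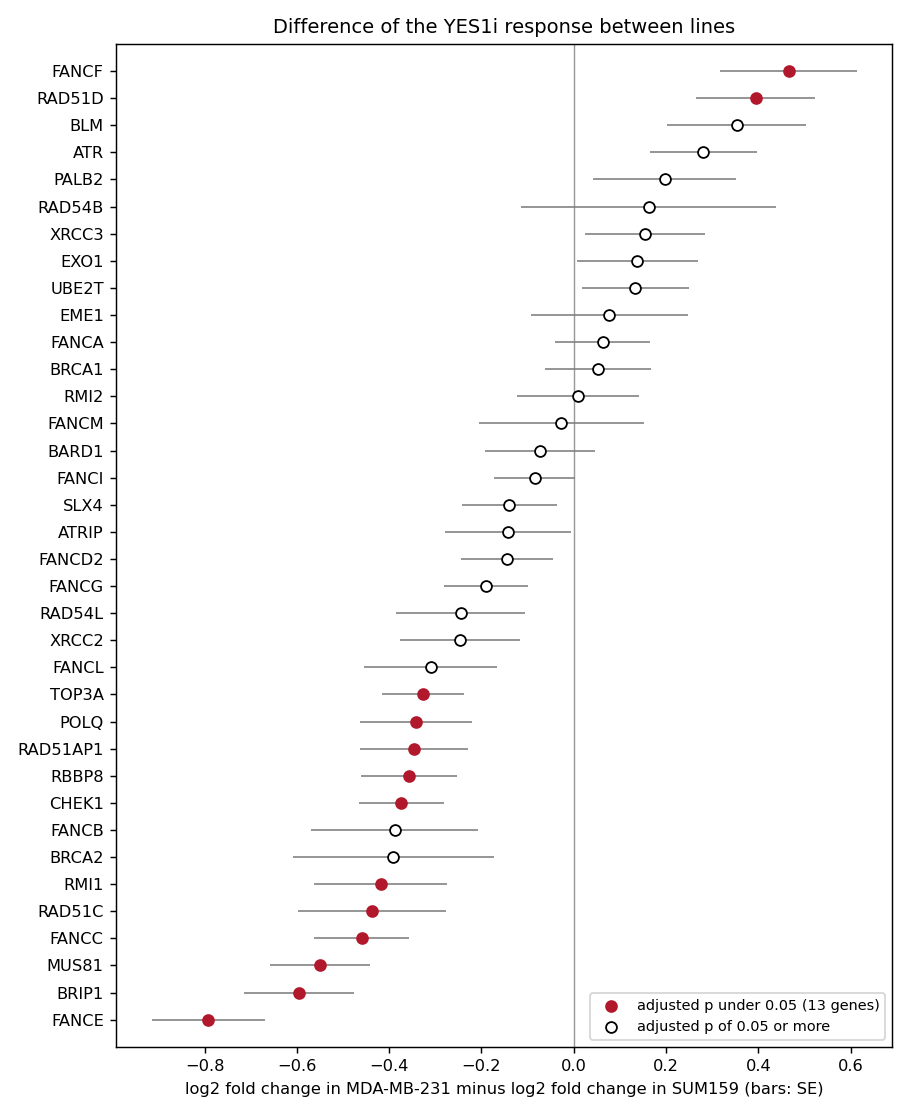
Log2 fold change in MDA-MB-231 minus that in SUM159 for each gene, with SE bars; filled points have an adjusted p under 0.05. The 13 called genes run from FANCE at -0.79 to FANCF at 0.47, and 11 of them lie left of 0.

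With DMSO, the lines differed in these genes about as often as in all genes. A difference was called for 27 genes (76.6% of all tested genes), of which MDA-MB-231 had the higher level for 14 (37.8%) and the lower for 13 (38.7%). In 13 genes each way the groups did not overlap (36% higher and 36.4% lower over all genes). The median difference was -0.03 on the log2 scale, against -0.02 over all genes. The FANCB call was lost without MDA-MB-231 DMSO replicate 1, 3 or 4 or SUM159 DMSO replicate 1, 2 or 3 (adjusted p = 0.0529 to 0.178). FANCM was lost without MDA-MB-231 DMSO replicate 1 (0.0868) or SUM159 DMSO replicate 1 (0.0821). Without SUM159 DMSO replicate 1, RAD51AP1 was also lost (0.0705) and EXO1 gained (0.0433). At least 2-fold differences were called for TOP3A and CHEK1, higher in MDA-MB-231 (18.9% of all genes), and for FANCF, lower there (19.7%). Of the 5 helicase and dissolvasome genes, 4 were higher in MDA-MB-231 and BLM was lower (-0.30, SE 0.10).

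TOP3A was at 95.7, 90.2, 87.2 and 91.2 CPM in MDA-MB-231 and at 35.5, 32.1, 31.1 and 34.5 CPM in SUM159 with DMSO, a log2 difference of 1.45 (SE 0.06, adjusted p = 1.04e-18). With YES1i it was at 53.0, 50.3, 56.2 and 50.3 CPM and at 25.7, 22.8, 23.0 and 24.9 CPM. CHEK1 differed by 1.06 (SE 0.06, adjusted p = 3.58e-15). RMI1 was at 36.1, 40.3, 36.7 and 40.5 CPM against 21.1, 22.2, 21.9 and 16.7 CPM with DMSO (0.90, SE 0.10), and at 18.2, 20.2, 16.8 and 18.6 against 10.9, 14.6, 15.6 and 11.45 CPM with YES1i. BRIP1 differed by 0.89 (SE 0.08). All 4 genes were apart between the lines with DMSO.

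Among the genes higher in SUM159, FANCF differed by -1.50 (SE 0.10, adjusted p = 1.30e-13), with MDA-MB-231 at 7.18 to 7.98 CPM and SUM159 at 19.2 to 24.4 CPM. POLQ was at 20.2, 19.6, 21.7 and 20.5 CPM in MDA-MB-231 and at 37.7, 38.0, 42.8 and 44.2 CPM in SUM159 with DMSO (-0.99, SE 0.08), and at 8.19, 7.60, 6.85 and 8.49 CPM and 17.4, 20.9, 19.7 and 20.1 CPM with YES1i. SUM159 with YES1i thus held POLQ at the level that MDA-MB-231 had with DMSO. EME1 was at 10.5, 11.4, 10.02 and 9.84 CPM against 19.6, 20.6, 21.7 and 18.4 CPM with DMSO (-0.95, SE 0.11), and at 3.89, 3.53, 5.32 and 5.70 against 7.85, 8.35, 9.55 and 8.34 CPM with YES1i. FANCD2 differed by -0.92 (SE 0.07), ATR by -0.76 (SE 0.08), RAD51D by -0.68 (SE 0.09) and PALB2 by -0.53 (SE 0.11).

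Levels between genes were compared per length, as RPKM, which is CPM per kilobase of the exonic length in the count table. With DMSO, UBE2T was the highest in both lines, at 30.9 ± 0.758 RPKM in MDA-MB-231 and 33.8 ± 2.56 RPKM in SUM159 (SD, n = 4). RAD54B was the lowest, at 0.968 and 1.15 RPKM. This rank is uncertain, since 59.1% of the RAD54B exonic length is shared with FSBP on the same strand. In MDA-MB-231 FANCE (17.2), FANCG (14.5), RAD51AP1 (14.3), TOP3A (14.1) and CHEK1 (11.9 RPKM) followed UBE2T. FANCG, RAD51AP1 and TOP3A lay within their spread of each other. In SUM159 the order after UBE2T was RBBP8 (14.5), RAD51AP1 (12.3), FANCI (11.3) and FANCE (10.2 RPKM), the last 3 with SDs that overlap their neighbours. Of the breast cancer risk genes, BRCA1 was in the middle of this order, at 5.64 and 5.42 RPKM, PALB2 was below it at 3.10 and 4.45 RPKM, and BRCA2 was among the lowest at 2.14 and 1.46 RPKM. With YES1i, UBE2T, at 14.9 RPKM in both lines, was still the highest.

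**Figure D5:**
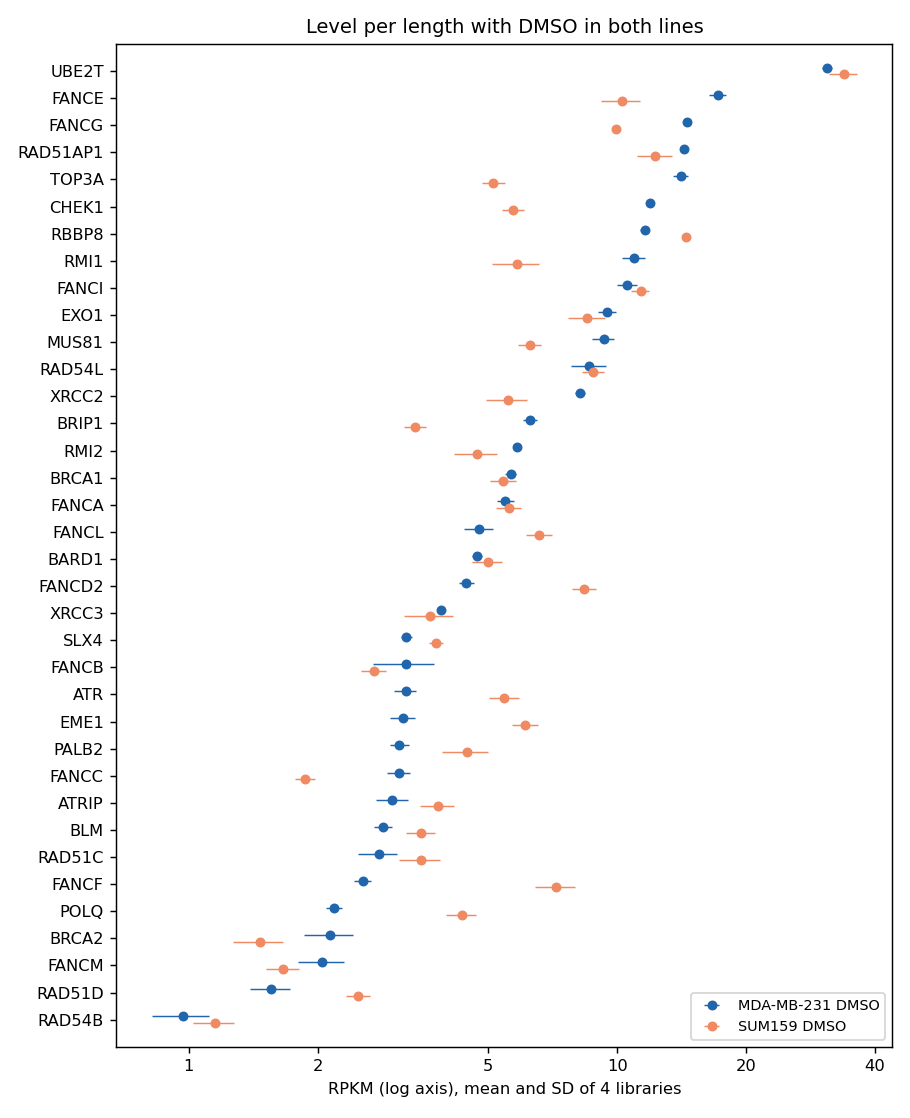
RPKM (log axis) of each gene with DMSO in MDA-MB-231 (blue) and SUM159 (orange), mean and SD of 4 libraries, ordered by MDA-MB-231. UBE2T leads in both lines at 30.9 and 33.8 RPKM. RAD54B is last, an uncertain rank, since 59.1% of its exonic length is shared with FSBP on the same strand. The points of FANCF, TOP3A, CHEK1, POLQ, EME1 and FANCD2 lie wide apart.

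Other genes of the same processes are given from lists, beside 22% lower and 26.8% higher of all tested genes in MDA-MB-231, the SUM159 shares being 26.5% lower and 25.1% higher. Of 31 further recombination genes, 15 were lower and 3 higher in MDA-MB-231 (median -0.27) and 20 lower and 5 higher in SUM159 (median -0.49). The largest falls were those of DNA2, the nuclease-helicase that resects with BLM (-1.58 and -1.43), of MND1, a factor of strand exchange (-1.56 in MDA-MB-231), and of RECQL4, a RecQ helicase (-1.46 in SUM159). ABRAXAS1, the scaffold of the BRCA1-A complex, rose by 0.58 and 0.67, RECQL5, a RecQ helicase, by 0.40 in MDA-MB-231 and RAD52, an annealing factor, by 0.50 in SUM159. Among 13 further Fanconi genes, 7 were lower in each line, with 1 higher in MDA-MB-231 and 0 in SUM159 (medians -0.15 and -0.27). CENPX, which binds FANCM, changed by -1.03 and -1.17, and CENPS by -0.93 and -1.25. USP1, which removes ubiquitin from FANCD2, changed by -0.99 and -0.63. WDR48, the USP1 cofactor, changed by 0.33 in MDA-MB-231 and was not called in SUM159 (0.01, SE 0.06).

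Of 15 further S and G2 checkpoint genes, 12 were lower and 1 higher in MDA-MB-231 and 9 lower and 2 higher in SUM159. CLSPN, the adaptor that brings CHEK1 to ATR, fell by 1.52 and 1.98, and CDC25A, the phosphatase that CHEK1 restrains, by 1.45 and 1.62. ATM, the kinase of double-strand breaks, rose by 0.45 in SUM159, where its change in MDA-MB-231 was 0.08 (adjusted p = 0.401). WEE1, the kinase that restrains CDK1, rose by 0.17 in SUM159 and fell by 0.34 in MDA-MB-231, and RAD17, which loads the checkpoint clamp, rose by 0.22 in MDA-MB-231. Of 15 non-homologous end joining genes, 7 were lower and 4 higher in MDA-MB-231 and 6 lower and 2 higher in SUM159, with the share of higher calls in MDA-MB-231 at that of all genes. PAXX changed by -0.71 in MDA-MB-231 and -0.69 in SUM159. PRKDC, the catalytic subunit of DNA-PK, fell by 0.87 in MDA-MB-231. Its mean in SUM159 was 1039 CPM with DMSO and 672 CPM with YES1i. The Ku subunits XRCC5 and XRCC6 fell by 0.92 and 0.88 in SUM159. The polymerase POLL rose by 0.41 in both lines and the ligase LIG4 by 0.35 in MDA-MB-231. Of 25 base and nucleotide excision repair genes, 15 were lower and 2 higher in MDA-MB-231 and 13 lower and 3 higher in SUM159. UNG, the uracil glycosylase, fell by 1.21 and 0.99. DDB2, which recognises damage by ultraviolet light, changed by -1.01 and -0.30, and PARP2 by -0.74 and -0.92. The glycosylase NEIL1 rose by 1.05 and 0.83, XPC by 0.62 in MDA-MB-231 and ERCC5 by 0.50 in SUM159. Medians were -0.53 and -0.59 for the checkpoint list, -0.46 and -0.20 for end joining and -0.22 and -0.24 for excision repair.

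Markers of proliferating cells moved with the 36 genes. All 20 genes of that list were lower in each line (22% and 26.5% of all tested genes), with medians of -1.30 and -1.33. Among them were RRM2, a subunit of ribonucleotide reductase (-1.93 and -1.95), and TYMS, thymidylate synthase (-1.73 and -1.56). The part of a changed share of cycling cells in the fall of the repair genes was not tested.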

How the data were processed

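Poly(A) RNA was sequenced from 16 libraries, 4 per group. The authors deposited 1 table of read counts per gene with gene lengths. HISAT2 2.0.5, featureCounts 1.5.0-p3 and hg38 are named by the submitters' processing notes, with no role or order. Annotation release, strand setting and overlap rule: not given in the sources used here. Per the labels' protocols, poly-T beads and random hexamers were used, and both a strand-marking and an unmarked second strand are described. Gene IDs of the table all occur in GENCODE 29, and 58724 of 58735 have the same coordinates there, so exon overlaps were taken from that release. Of the 36 genes, 20 share exonic bases with another gene, and for 9 of these the other gene had at least 10% of their count. Such values are uncertain.

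From the deposited counts, edgeR 4.0.16 (R 4.3.3) computed TMM factors, kept genes by filterByExpr over the 4 groups, and tested them by its quasi-likelihood method (robust), with 1 model of the 16 libraries and 4 group means. Benjamini-Hochberg adjustment covered the 17647 genes kept, and calls are under 0.05. Standard errors were derived from the F statistic. CPM use TMM-scaled totals over all genes. The steps were tested on simulated data in which few genes changed, as many upward as downward. Far more genes were called here, so the simulation cannot check the scaling. No replicate pair agreed within sampling noise. Alternatives were DESeq2 1.42.0, limma-voom (limma 3.58.1), 2 other scalings (upper quartile, RLE), no filter, a mean count of at least 10, fits of only the groups compared, a replicate block, stricter thresholds and leaving out each library.

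The members, lists and rules were chosen with earlier results of these data known. Per-library values are given for BRCA1, BRCA2, FANCD2, FANCI, CHEK1, ATR and, at 1 CPM or more, for the 4 called genes with the largest fall and rise per line, the 4 with the largest difference of response and the 4 in each direction between the lines with DMSO. Of each other list, the 2 largest called falls and rises per line at a mean of 1 CPM or more are named. A value given for 1 line does not mean that the other line was unchanged. NHEJ1, an end joining gene with a called rise of 2.91 in SUM159, was below this limit. Promoters were meant to be printed for the 3 most negative and 2 smallest mean responses. Windows with more than 30 exonic bases (20 of 33) were left out afterwards, EXO1 and MUS81 among them, and the next genes taken. Sequence from chromosome 8 was not used.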

Additional observations from a re-analysis of the deposited data

Results flagged for a closer look

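Among 144 groups of 4 libraries (36 genes in 4 groups), 2 held a library far from the other 3, where chance gives about 1 in 20 groups. PALB2 was at 21.6 CPM in SUM159 YES1i replicate 2, and at 15.1 to 15.6 CPM in the other 3 libraries of that group. RAD54B was at 1.15 CPM in MDA-MB-231 YES1i replicate 4, and at 2.54 to 2.69 CPM in the other 3.

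For 13 genes the response to YES1i differed between the lines by the interaction test of edgeR. The log2 fold change was more negative in MDA-MB-231 for FANCE (-0.79), BRIP1 (-0.60), MUS81 (-0.55), FANCC (-0.46), RAD51C (-0.44), RMI1 (-0.42), CHEK1 (-0.37), RBBP8 (-0.36), RAD51AP1 (-0.35), POLQ (-0.34) and TOP3A (-0.33). It was more negative in SUM159 for FANCF (0.47) and RAD51D (0.39). Line, medium and seeded cell number cannot be told apart in these differences.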

How the results depend on the processing

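Over the 36 genes, 4 comparisons and the alternatives, 3540 of 3672 values kept their direction and call, 108 lost a call, 24 gained one, and 0 changed sign while called. The number of genes lower in MDA-MB-231 stayed at 32 to 33 (30 at 1.5-fold) and in SUM159 at 29 to 32 (23 at 1.5-fold), with and without single libraries. The 1 gene higher in MDA-MB-231, FANCF, fell to 0 with limma-voom, no filter, the replicate block, an adjusted p under 0.01 or a 1.5-fold threshold, and ran from 0 to 1 when single libraries were left out. Genes higher in SUM159 numbered 2 with upper quartile scaling, where FANCE joined MUS81 (0.22, adjusted p = 0.0348), and 0 at 1.5-fold. Differences of response numbered 16 with upper quartile scaling, all more negative in MDA-MB-231, 7 at an adjusted p under 0.01 and 2 at 1.5-fold. With DMSO, 6 genes were higher and 6 lower in MDA-MB-231 at 1.5-fold, against 14 and 13. Upper quartile scaling moved the median of all genes in SUM159 from 0.02 to 0.14 and the share of higher among all calls from 48.7% to 63.4%, and for the difference of responses from 61.2% to 43.9%. Leaving out single libraries moved counts both ways, with 10 to 14 differences of response against 13. The cause of these changes was not tested, other than that stricter thresholds lower counts by construction.

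Replicate numbers share no stated source. Deviations of same-numbered libraries from their group means correlated at -0.107 to 0.0117, and those of differently numbered ones at -0.0958 to 0.130. These values cannot exclude a shared source, and the samples were not paired in the main fit. With the replicate block, 32 genes were lower and 0 higher in MDA-MB-231, and 10 in place of 13 differed in response. The block was not fitted for the lines with DMSO, and the fit of only the groups compared cannot give a difference of responses. At 23 counts or more, depth limits RAD54B most.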

Other observations

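A tested gene on the other strand started within 1000 bases of 12 of the 36, and 11 of these neighbours were protein-coding. The share of all genes with such a neighbour was not counted. In MDA-MB-231 3 of the 11 were called lower (22% of all tested genes) and 4 higher (26.8%). In SUM159 4 were lower (26.5%) and 2 higher (25.1%). The medians were -0.02 and -0.05. These few counts are not read as a trait of the neighbours, and all called ones are named here. TOP3A (-0.80 and -0.47) starts 303 bases from SMCR8, which rose by 0.37 (SE 0.05) in MDA-MB-231 and 0.42 (SE 0.06) in SUM159. BRCA1 starts 236 bases from NBR1, an autophagy receptor, which rose by 0.42 (SE 0.05) in MDA-MB-231 and was at 0.09 (SE 0.05, adjusted p = 0.137 by edgeR) in SUM159. FANCB starts 372 bases from MOSPD2, which rose by 0.48 (SE 0.08) in MDA-MB-231. SLX4 starts 130 bases from DNASE1, which rose by 0.51 (SE 0.09) in SUM159. RMI1 starts 95 bases from HNRNPK, which fell by 0.39 (SE 0.05) and 0.46 (SE 0.05), and EME1 starts 6 bases from MRPL27, which fell by 0.40 (SE 0.08) and 0.62 (SE 0.08). In SUM159, FKBP3 near FANCM changed by -0.63 (SE 0.09) and ZFYVE21 near XRCC3 by -0.42 (SE 0.07). In MDA-MB-231, C12orf4 near RAD51AP1 changed by -0.30 (SE 0.10) and DCTN5 near PALB2 by 0.12 (SE 0.05).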
